A study of Mus musculus with 6 samples.

Results

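Fos encodes the transcription factor cFos, which pairs with Jun proteins to form AP-1 and binds short DNA motifs in promoters and enhancers. It is the textbook immediate-early gene: in dentate granule cells, the principal neurons of this hippocampal region, its transcription starts soon after the cell is stimulated, without new protein synthesis. Its promoter carries elements bound by CREB and by serum response factor, and distal enhancers on both sides of the gene add to its induction by neuronal activity. The chromatin around Fos is described here in mice whose dentate gyrus received extra cFos from a virus.

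The members were chosen by position. They were all called peaks overlapping chr12:86764000-86868000 of mm9, which is Fos, placed at about chr12:86814850-86818230 on the plus strand, with close to 50 kb on each side. Within that window the 6 libraries held 36 of their 192598 peaks on chromosomes 1 to 19 and X, and these 36 peaks merged into 10 of the 70575 merged regions. In cFos replicates 1 to 3 the window held 7, 5 and 7 peaks, against 4, 7 and 6 in EYFP replicates 1 to 3. The RefSeq gene table, which is on another build (GRCm38.p6), gives Fos a length of 3385 bp, close to the 3381 bp used here. In its gene order the nearest protein-coding neighbours are Tmed10 before Fos and Jdp2, which encodes an AP-1 dimerization partner, after it, and only non-coding genes and pseudogenes lie between them and Fos.

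The libraries were ATAC-seq, in which the Tn5 transposase cuts and tags open DNA, from microdissected dentate gyrus of mice aged 8 weeks, 1 library per animal. The cFos group (n = 3) had received adeno-associated virus (AAV) expressing cFos, and the control group (n = 3) AAV expressing EYFP, a fluorescent protein. Both groups were therefore infected animals, and both keep their own Fos gene. The strain label reads C57BL/6 in 1 library and ends in another number in each of the rest. The sources used here do not give the viral promoter, the form of the cFos insert, the cell types infected or the time since infection. Read depth is unknown, since the deposited lists hold peaks and no reads, so a missing call does not show that a site was closed. Over the whole lists cFos peaks were narrower, with median widths of 437 to 479 bp against 553 to 569 bp in EYFP libraries, and their lists covered 13.7 to 18.8 Mb against 20.3 to 30.8 Mb. Marker genes of the tissue could not be placed without an mm9 annotation, so the tissue label was not checked against them.

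The 250 bases before the start of Fos are shown because they hold a CRE-type element and the TATA box, and because the promoter peak, where called, reached at least 428 bases before the start. The sequence is RefSeq's for GRCm38.p6, chr12:85473640-85473889, plus strand. Those coordinates belong to that build and were not used to place any peak. Capitals mark matches to the CRE half-site TGACG, with its extension TGACGT, and to the TATA box TATAAA.

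Fos promoter: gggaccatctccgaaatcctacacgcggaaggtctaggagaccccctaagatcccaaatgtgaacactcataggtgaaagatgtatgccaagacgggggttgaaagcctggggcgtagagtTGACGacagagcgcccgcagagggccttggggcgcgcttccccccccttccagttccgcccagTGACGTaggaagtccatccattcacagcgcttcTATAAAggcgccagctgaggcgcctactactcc

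Positions are counted from the start, the last base shown being -1. The half-site TGACG matched at -129 and at -66, and 17.8% of 32851 RefSeq mouse promoter windows of the same length hold it on either strand. The second of these overlaps the longer TGACGT at -66 to -61, held by 6.47% of windows. TATAAA matched at -33 to -28, and 12.4% of windows hold it. The full CRE TGACGTCA and the AP-1 site TGANTCA, searched on both strands, had no match in these 250 bases. The full CRE was held by 1.55% of windows and the AP-1 site by 6.75%. A match is a description of letters and was not tested as a binding site.

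Calls separated the groups fully only inside the gene. All 3 cFos libraries had a pair of peaks in the body of Fos, and none of the EYFP libraries had a peak there. Of the 10 regions in the window, these 2 were called in 3 of 3 cFos and 0 of 3 EYFP libraries, a pattern held by 0.449% of all merged regions. None of the 10 was called in 3 of 3 EYFP and 0 of 3 cFos libraries, against 1.97% of all merged regions. On lists shortened to the length of the shortest, 23986 peaks, the counts in the window were again 2 and 0, where the shares over all regions were 0.937% and 1.35%. No test was made on the presence or absence of a call in a single region. Values per library were compared by exact permutation tests, in which 3 libraries against 3 cannot give a p below 0.1.

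**Figure D1:**
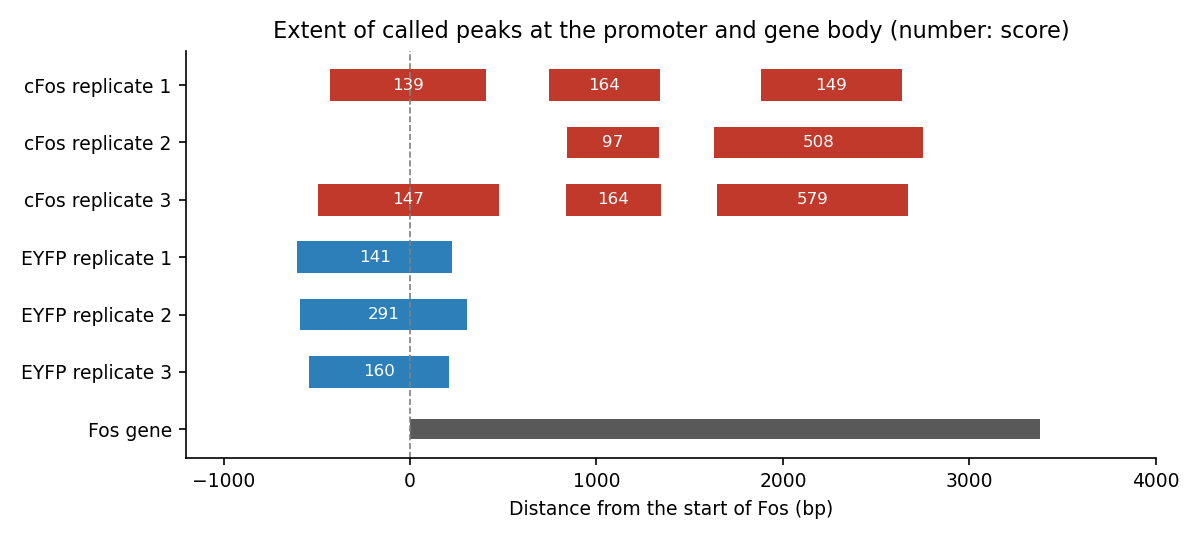
Extent of each called peak around the promoter and body of Fos, in bp from the gene's start (x axis), with 1 row per library and the authors' score printed on each bar; the grey bar is the gene. The pair of peaks between 744 and 2752 bp is seen in the 3 cFos rows and in no EYFP row, and cFos replicate 2 has no peak over the start.

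The first gene-body region, chr12:86815594-86816193, lay from 744 to 1343 bp after the start of Fos. Its peak scored 163.65 in cFos replicate 1, 96.87 in replicate 2 and 163.51 in replicate 3, and no EYFP library called it. The score is the authors' own value per peak, and its rank within a library's list is given as a percentile. This peak stood at percentiles 76.2, 55.8 and 74.2 of the cFos lists, so it was above the middle of each list and near the top of none. Its right end varied by 11 bp between the 3 animals and its left end by 96 bp, and 493 bp were shared by all 3 peaks. For the second gene-body peak, described next, the right end varied by 113 bp and the left by 254 bp. How often edges vary this little over all regions was not computed.

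The second gene-body region, chr12:86816478-86817602, lay from 1628 to 2752 bp after the start. It scored 148.78, 508.39 and 578.53 in cFos replicates 1 to 3, and again no EYFP library called it. In cFos replicates 2 and 3 it was the highest peak of the whole window and ranked 569th of 23986 and 829th of 34690 peaks. In cFos replicate 1 it ranked only 7121st of 26715, with 4 peaks of the window above it, among them the first gene-body peak of the same library. The peaks were 758, 1125 and 1029 bp wide, at percentiles 81.5, 93.8 and 91.7 of width in their lists, whereas cFos lists as a whole had narrow peaks. All 3 cFos animals thus had the call, while its rank differed widely between replicate 1 and the other two.

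As called, neither gene-body peak was joined to a promoter peak, though without reads the signal between the calls is unknown. In cFos replicates 1 and 3 the promoter peak ended 334 and 364 bp before the first gene-body peak. A further 539, 295 and 300 bp without a call separated the first from the second in cFos replicates 1 to 3. Between the second peak and the end of the gene, the last 741, 628 and 708 bp carried no call. Of the 317 regions with 3 of 3 cFos and 0 of 3 EYFP calls, only these 2 lay within 1 kb of another such region. That 0.631% is the Fos pair itself and no background. The share of close neighbours over all merged regions was not computed.

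Bases under peaks restate these calls without merging and are not a separate result. Beyond 1 kb from the start, Fos had 1100, 1457 and 1372 bases under peaks in cFos replicates 1 to 3, and 0 in each EYFP library. That is 46.2%, 61.2% and 57.6% of this 2380 bp stretch in the cFos libraries. The mean was 1310 ± 186 bases in cFos and 0 ± 0 bases in EYFP libraries (mean ± SD of 3 per group; p = 0.1, the smallest this design can give, by a two-sided exact permutation test). The groups did not overlap.

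**Figure D2:**
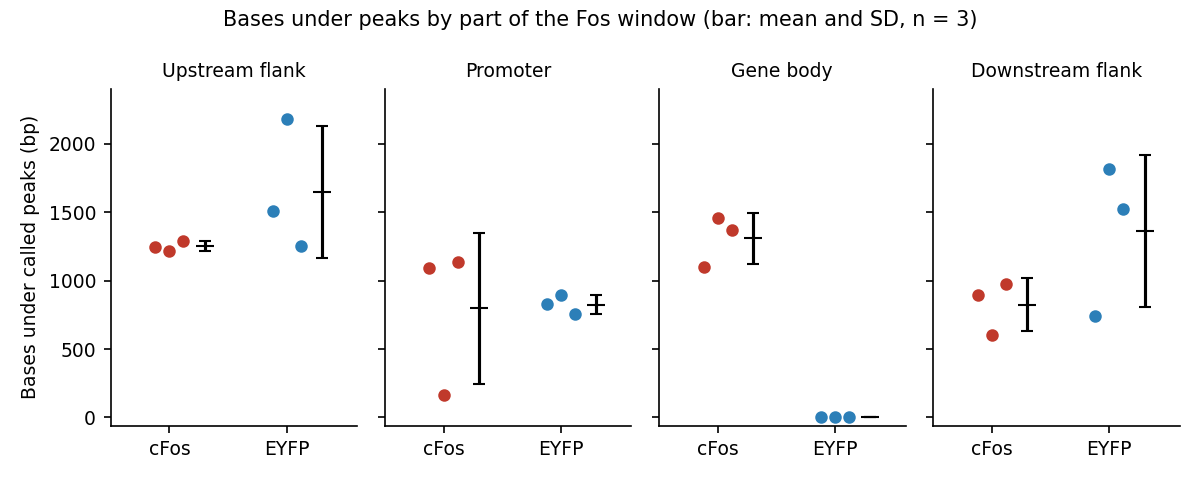
Bases under called peaks (y axis, bp) in 4 parts of the Fos window, 1 point per library with the group mean and SD (n = 3) beside the points, cFos left of EYFP in each panel. The gene body separates the groups (1100 to 1457 bp in cFos, 0 in EYFP), while the promoter and both flanks overlap.

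The promoter peak was present in both groups. Its region, chr12:86814246-86815324, was called in 2 of 3 cFos and 3 of 3 EYFP libraries. Its scores were 139.46 and 146.57 in the first and the third cFos replicate, with no call in cFos replicate 2, against 141.07, 291.32 and 160.22 in EYFP replicates 1 to 3. The percentiles were 71.2 and 70.7 in those cFos libraries, against 69.7, 85.5 and 72.9 in EYFP libraries, so the cFos values lay within the EYFP range. The library with no promoter call, cFos replicate 2, had the lowest of the 3 scores at the first gene-body peak (96.87) and one of the 2 high scores at the second (508.39). It also had the shortest list, and of the 13930 regions that the other 5 libraries all called, 15.0% were not called in cFos replicate 2.

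Where the promoter peak was called, it sat further into the gene in cFos libraries. It covered 428 and 496 bases before the start in cFos replicates 1 and 3, against 604, 588 and 542 in EYFP replicates 1 to 3. From the start onward it covered 410 and 475 bases in those cFos libraries, against 226, 305 and 211 in EYFP libraries. Both edges thus lay further in the direction of transcription in both cFos libraries relative to every EYFP library. Its midpoint lay at -10.3 ± 1.06 bp in cFos (SD, n = 2) and at -166 ± 23.8 bp in EYFP libraries (SD, n = 3), a difference of 156 bp (p = 0.2 by a two-sided exact permutation test, the smallest that 2 against 3 can give). This measure was chosen after its values were seen.

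Across the genome, edges were compared by coordinate alone, without gene strand and not at promoters only. In the cFos libraries the left edge lay further right often and the right edge seldom. Among 12686 regions with a single peak in each of these 5 libraries, both cFos starts lay to the right of every EYFP start in 32.3%, where narrower cFos peaks act in the same direction. Both cFos ends lay to the right of every EYFP end in 1.53%, and both edges did so in 0.528%, with the mirror pattern to the left in 0.402%. A midpoint difference at least as large as at Fos, to either side, was seen in 7.02% of these regions. How often promoter peaks differ in the direction of transcription was not computed.

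In the fixed window of 1 kb on each side of the start, bases under peaks did not separate the groups. They numbered 1095, 161 and 1133 in cFos replicates 1 to 3, against 830, 893 and 753 in EYFP replicates 1 to 3, with means of 796 ± 551 and 825 ± 70.1 (mean ± SD of 3 per group; p = 1.0, by a two-sided exact permutation test). The window takes in the left part of the first gene-body peak, and the 161 bases of cFos replicate 2 are all from that peak. In the 1 kb before the start alone, the means were 308 ± 269 bases in cFos and 578 ± 32.2 in EYFP libraries (two-sided exact permutation p = 0.1). Every cFos library, one of them at 0, lay below every EYFP library. The share of other promoters with this ordering was not computed. Over the genome, cFos starts lay right of every EYFP start in 32.3% of the single-peak regions above, and cFos replicate 2 lacked 15.0% of the regions that the other 5 libraries called. Without cFos replicate 2 the difference in the window of 1 kb on each side turned from -29.0 to 289 bases, and without EYFP replicate 2 to 4.83, so its direction depends on single libraries. With peaks that start inside the gene left out, the means were 603 bases in cFos and 825 in EYFP libraries, a difference of -222.

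Upstream of the promoter, 2 sites were called in every library. The stronger, chr12:86795828-86797000, is centred 18.4 kb before Fos. It scored 347.78, 369.51 and 279.17 in cFos replicates 1 to 3, against 437.39, 568.23 and 317.11 in EYFP replicates 1 to 3. The groups overlapped, and the mean percentile was 91.8 ± 3.77 in cFos and 94.0 ± 3.64 in EYFP libraries (mean ± SD of 3 per group; p = 0.5, by a two-sided exact permutation test). It was the highest peak of the window in all 3 EYFP libraries and in cFos replicate 1, and came second to the second gene-body peak in cFos replicates 2 and 3.

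The other upstream site, chr12:86776945-86777531, is centred 37.6 kb before the gene. It scored 171.07, 113.88 and 123.79 in cFos replicates 1 to 3, against 230.51, 191.95 and 114.04 in EYFP replicates 1 to 3. Its mean percentile was 68.5 ± 7.96 in cFos and 73.1 ± 12.3 in EYFP libraries (mean ± SD of 3 per group; p = 0.7, by a two-sided exact permutation test), with overlapping groups. Without EYFP replicate 1 the difference turned from -4.60 to 1.19 percentile points.

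Downstream, the site chr12:86826619-86827471, centred 12.2 kb after the start, was the only one of the 3 regions called in all libraries whose percentile was higher in every cFos library. Its scores were 247.75, 187.15 and 231.33 in cFos replicates 1 to 3, against 191.28, 167.01 and 199.78 in EYFP replicates 1 to 3, and the scores overlapped. As percentiles they were 87.1, 81.3 and 83.2 in cFos libraries, against 79.5, 69.8 and 79.4 in EYFP libraries, a difference of 7.65 points (two-sided exact permutation p = 0.1). Over the 11837 regions that all 6 libraries called, 2.03% had every cFos percentile above every EYFP one and 13.2% had every cFos percentile below. Percentiles also move with the length of a list, which ran from 23986 to 34690 peaks in cFos and from 29896 to 44285 in EYFP libraries. On lists of equal length the difference was 17.5 points (two-sided exact permutation p = 0.1), and without EYFP replicate 2 on full lists it was 4.45. The shares over all regions are for full lists and were not computed on lists of equal length.

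**Figure D3:**
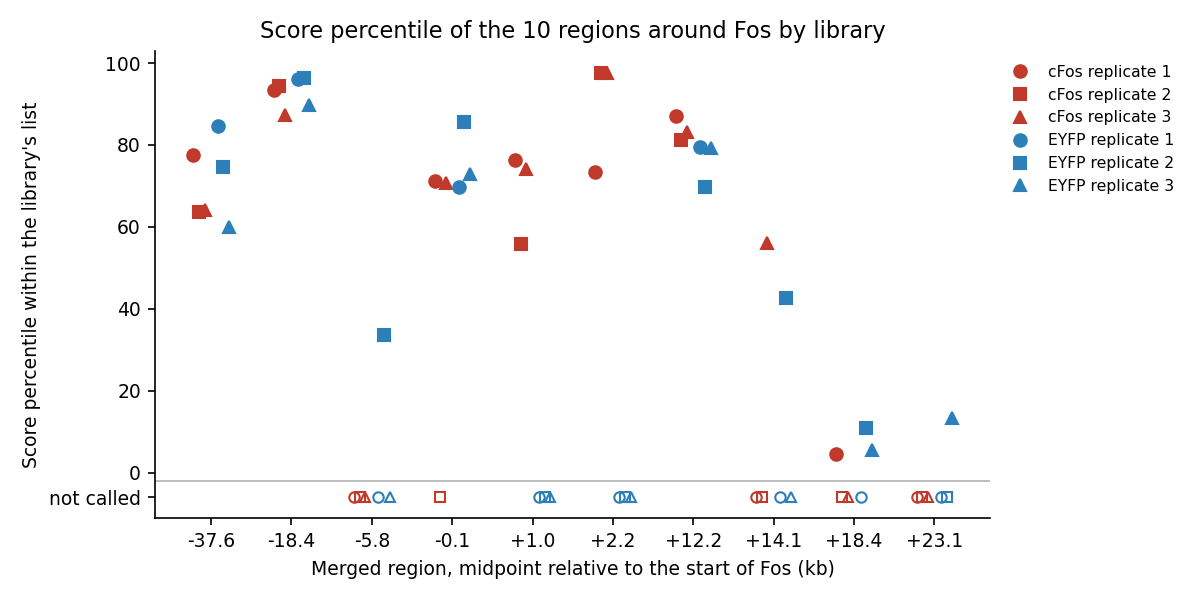
Score percentile within each library's list (y axis) for the 10 merged regions of the Fos window, ordered by the midpoint's distance from the start of Fos in kb (x axis); open symbols on the lowest line mark libraries with no call. The gene-body regions at 1.0 and 2.2 kb are filled for cFos and open for EYFP libraries, and the cFos points lie above the EYFP points at 12.2 kb.

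At 2 of these 3 sites the peaks of every cFos library were narrower than those of every EYFP library. At 18.4 kb upstream the peak was 798 ± 52.9 bp wide in cFos and 996 ± 144 bp in EYFP libraries, and at 12.2 kb downstream 552 ± 59.6 bp in cFos and 763 ± 19.2 bp in EYFP libraries (mean ± SD of 3 per group; p = 0.1 at both, by a two-sided exact permutation test). At 37.6 kb upstream the widths overlapped, at 453 ± 66.9 bp in cFos and 474 ± 100.3 bp in EYFP libraries (p = 0.8 by the same exact permutation test). Narrower cFos peaks were a feature of the whole lists, and the share of all regions with this ordering of widths was not computed. Midpoints differed by 7.67 bp at the site 37.6 kb upstream, by -30.5 bp at 18.4 kb upstream and by -6.83 bp at 12.2 kb downstream (two-sided exact permutation p = 0.8, 0.6 and 0.7). At the promoter the difference was 156 bp.

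Each of the remaining 4 regions was called in 1 to 3 of the 6 libraries, a pair of them in both groups and a pair in EYFP libraries only. The site chr12:86808818-86809350, centred 5.8 kb upstream, was called in EYFP replicate 2 alone, with a score of 77.13. At 14.1 kb downstream, chr12:86828722-86829264 had a score of 103.92 in cFos replicate 3, against 90.17 in EYFP replicate 2, at percentiles 56.1 and 42.7 of their lists. At 18.4 kb downstream, chr12:86832971-86833537 scored 51.72 in cFos replicate 1, and 56.23 and 52.52 in EYFP replicates 2 and 3, close to the lowest score in the lists, 50. The last, chr12:86837730-86838092, scored 56.46 in EYFP replicate 3 only. EYFP replicate 2, with the longest list, had 3 of these 4.

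**Figure D4:**
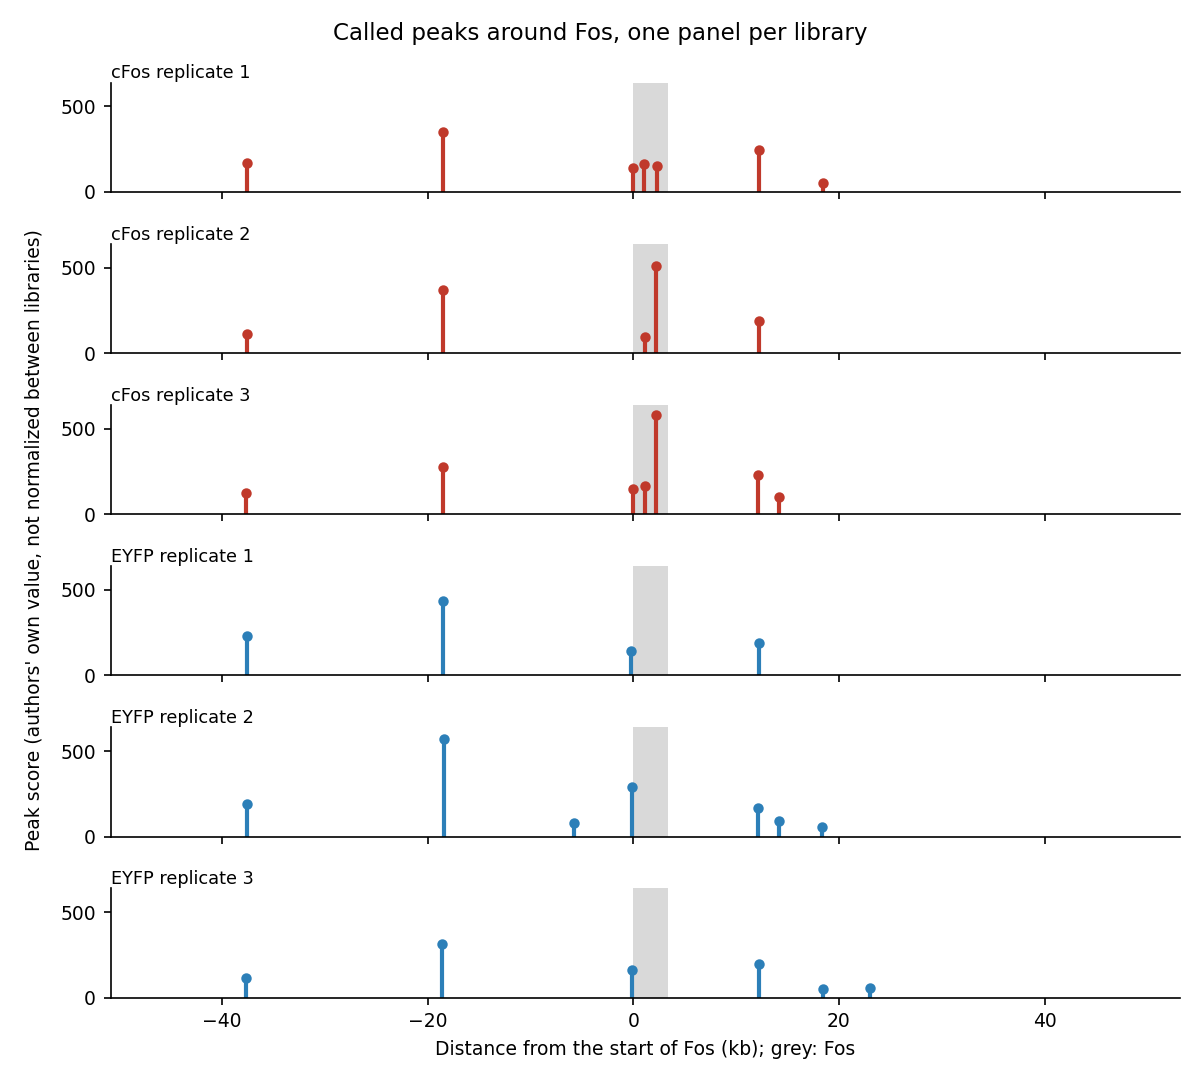
Authors' score of every called peak (y axis) against the distance of its midpoint from the start of Fos in kb (x axis), 1 panel per library, with the gene in grey. Sites near -37.6, -18.4 and 12.2 kb recur in all 6 panels, and cFos replicates 2 and 3 reach 508 and 579 inside the gene.

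Over the flanks, cFos libraries averaged fewer bases under peaks than EYFP libraries, as they did over their whole lists. The upstream flank held 1244, 1217 and 1292 bases in cFos replicates 1 to 3, against 1509, 2181 and 1253 in EYFP replicates 1 to 3 (two-sided exact permutation p = 0.2). The downstream flank held 897, 606 and 973 bases in cFos libraries, against 741, 1818 and 1522 in EYFP libraries (two-sided exact permutation p = 0.3). Both flanks together averaged 2076 ± 228 bases in cFos and 3008 ± 897 in EYFP libraries (mean ± SD of 3 per group; p = 0.2, by a two-sided exact permutation test), so the cFos mean was 69.0% of the EYFP mean. The sequence covered by whole cFos lists was 64.9% of the EYFP mean.

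Set against the length covered by each list, the flanks overlapped between groups and the whole window did not. Per covered Mb of its list, a cFos library had 133 ± 11.8 flank bases and an EYFP library 122 ± 10.2 (mean ± SD of 3 per group; p = 0.4, by a two-sided exact permutation test). With promoter and gene body included the values were 292, 251 and 254 bases per covered Mb in cFos replicates 1 to 3, against 152, 159 and 161 in EYFP replicates 1 to 3, and the groups did not overlap (two-sided exact permutation p = 0.1). Unscaled, the window held 4336, 3441 and 4770 bases in cFos libraries, against 3080, 4892 and 3528 in EYFP libraries, which overlap. The window values include the gene-body peaks, of 1357, 1618 and 1534 bases in cFos replicates 1 to 3, so they are not a separate result. The measure was not computed for other windows.

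Whether cFos peaks follow the exons of Fos, as reads from a virus-borne cDNA would, was not answered. On the promoter and distal sites, the calls show which were shared between the groups. The calls found in cFos libraries alone lay inside the transcribed gene, in separate blocks, and neither the promoter nor any distal site in the window was of that kind. The distal sites 37.6 and 18.4 kb upstream and 12.2 kb downstream were called in all 6 libraries. Percentiles overlapped between groups at both upstream sites. At the downstream site every cFos percentile was above every EYFP one, as in 2.03% of regions that all 6 libraries called. The promoter peak was shared. It reached further into the gene in the 2 cFos libraries that had it than in the 3 EYFP libraries. That contrast was chosen after its values were seen (p = 0.2 by a two-sided exact permutation test, the smallest that 2 against 3 can give). The mm9 positions of the exons and introns were not used here, so the match of the blocks to exons was not tested. Every cFos library carries the viral cFos sequence and no EYFP library does, so in these lists reads from the virus and reads from the animal's own Fos gene cannot be told apart.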

How the data were processed

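ATAC-seq libraries from 3 cFos and 3 EYFP animals were grouped and numbered by their sample titles. The submitters' processing notes name Bowtie2 and the build mm9. The deposited files were 1 peak list per library, with the authors' score for each peak. The sources used here do not say what the score measures, how the caller was set, whether a control was used or how the Tn5 offset was handled. Peak calls and widths depend on read depth, which is unknown.

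Positions are mm9, 1-based. Peaks on chromosomes 1 to 19 and X that touched or overlapped were merged, and a region counted as called in a library with 1 bp or more of a peak in it. The promoter was 1 kb on each side of the start of Fos, and the gene body was the rest of the gene. Percentiles are ranks within a list. Group means were compared by two-sided exact permutation over 20 assignments. Counting was tested on simulated lists. Every region of the window is named. The members and lists were chosen with earlier results of these data known. Presence in the merged regions, taken as deviations from group means, correlated by -0.0148, -0.00774 and 0.00300 between same-numbered libraries, so numbers were not treated as pairs. Alternatives were a score above 93.41 (the pooled median), lists of 23986 peaks, each library left out, a replicate block, peaks of 400 bp, another promoter boundary, shorter flanks, merging across 200 bp and coverage of at least 50% of a region. Leaving out peaks that start inside the gene was chosen after seeing the data. Scripts ran in Python 3.11.15 (scipy 1.17.1, pandas 2.3.3, numpy 2.4.6, matplotlib 3.10.9).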

Additional observations from a re-analysis of the deposited data

How the results depend on the processing

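The 2 gene-body regions kept calls in every cFos and in no EYFP library under each of the 10 alternatives run for these counts. Under each of them, 0 regions showed the opposite pattern. Leaving out 1 library could not undo the gene-body pattern, and neither could merging across 200 bp, since the gaps were wider. Those runs are therefore no evidence of its stability. Every EYFP library had 0 gene-body bases. Leaving out 1 library, filtering by score, shortening lists or narrowing peaks therefore could not make the difference, cFos minus EYFP, negative. Only the whole-gene boundary gave EYFP libraries any bases, a mean of 247 against 1798 in cFos libraries. Over its 11 alternatives the difference ran from 673 bases with 400 bp peaks to 1551 over the whole gene. It ran from 1236 to 1415 when 1 library was left out. Both flanks stayed negative under theirs, the downstream one at -49.3 bases on equal-length lists and above the stricter score, against -535. Leaving out 1 library gave from -594 to -130 bases upstream and from -845 to -306 downstream. The promoter difference, -29.0 bases, ran from -197 to 289 with 1 library left out. It turned positive without cFos replicate 2 (289) or EYFP replicate 2 (4.83). With peaks that start inside the gene left out it was -222, and in the 1 kb before the start alone it was -270. The number of peaks, 6.33 ± 1.15 in cFos and 5.67 ± 1.53 in EYFP libraries (mean ± SD of 3 per group; p = 0.7, by a two-sided exact permutation test), differed by 0.667. That difference was 2.0 on equal-length lists and above the stricter score (6.0 in cFos and 4.0 in EYFP libraries; two-sided exact permutation p = 0.1 in both), -0.167 without EYFP replicate 1, -1.33 with peaks that start inside the gene left out, and from -0.167 to 1.33 over the libraries left out. The percentile difference at the site 37.6 kb upstream, -4.60, was 2.69 on equal-length lists and -14.2 above the stricter score, and ran from -11.1 to 1.19 with 1 library left out. The causes were not tested. With the replicate number as a block the differences are the same by construction, with an exact sign-flip p of 0.25 for gene-body bases, the smallest it can give. None of these exact tests could pass 0.05, so an unchanged p says nothing about stability. Depth is unknown, so missing calls set no upper limit on accessibility.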
